A study of Mus musculus with 6 samples.

Results

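Oxidative phosphorylation genes were taken by symbol from the protein-coding genes annotated on NCBI Build 37 of the mouse genome. A gene was included if its symbol begins with Nduf, Uqcr, Cox4 to Cox8 or Atp5, or if it is Sdha, Sdhb, Sdhc, Sdhd, Cyc1 or Cycs. The rule gave 94 of 22359 protein-coding genes, with 93 distinct symbols, since Ndufb8 is annotated under 2 gene identifiers. They comprise 7 core and 32 accessory genes of complex I with 4 of its assembly factors (Ndufaf1 to Ndufaf4), 4 genes of complex II, 9 of complex III, 19 of complex IV, 18 of complex V and Cycs. The prefixes also catch 6 names that are not subunits in textbook lists, namely Cox4nb, Atp5l-ps1, Atp5s, Atp5sl, Ndufa4l2 and Cox7a2l, and these were kept. Without them and the assembly factors, 84 genes remain.

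Oxidative phosphorylation takes place in the inner mitochondrial membrane. Complexes I and II feed electrons from NADH and succinate into ubiquinone, complex III passes them to cytochrome c, complex IV hands them to oxygen, and complex V uses the resulting proton gradient to make ATP. Most subunits are encoded in the nucleus and a few core ones in mitochondrial DNA, so nuclear genes on many chromosomes must be transcribed together, and slow, oxidative muscle fibers are known for high mitochondrial content. Some subunits of complex IV exist as isoforms, with Cox6a2, Cox7a1 and Cox8b typical of heart and skeletal muscle, and Cox4i2, Cox6b2, Cox7b2 and Cox8c known from lung, testis or other tissues.

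The reads came from wild-type C57BL/6 mice, from limb muscle myoblasts of fetuses at E18.5 listed at 17 passages and turned into myotubes by 48 hours in DMEM with 2% horse serum. After fixation by disuccinimidyl glutarate followed by formaldehyde, chromatin was pulled down with an antibody against Sox6, a transcription factor known as a suppressor of slow fiber genes, or against RNA polymerase II (Pol II), and sequenced beside input DNA. Each of the 3 groups had 2 libraries from experiments described as independent, all with the same genotype and treatment, so each comparison is of an immunoprecipitation with input DNA, which was taken without antibody. Depth ran from 1468604 to 2985437 reads in the ChIP libraries and was 21973495 and 24249850 in the inputs. All 8 myotube markers had more Pol II than input at the start, with a median log2 ratio of 5.28, whereas the median was 0.60 for 5 fibroblast markers, of which Pdgfra was called higher and Dcn lower, and among 3 blood markers Cd68 was called. The part of other cells in the results was not tested. No label says whether the libraries of a group came from separate cultures or animals, so p-values refer to these libraries alone. The fit draws the SE and p-value of a gene from the spread of genes at a similar level, in part over bodies and almost wholly at starts. They are thus no measure of the spread between the 2 libraries of that gene.

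The 5′ ends of reads were counted in the 1000 bp centred on the annotated start and over the gene body, which runs from 500 bp after the start to the annotated end. Levels are given as RPKM, the reads per kilobase of the window scaled to the mapped reads of the library. At the start, Pol II was well above the typical gene. The 94 start windows held a median of 3.90 RPKM in Pol II replicate 1 and 3.62 in replicate 2, which is 6 and 10 reads, against 0.650 and 0.362 RPKM over all genes. Input at the same windows had medians of 0.546 and 0.722 RPKM, also above the 0.319 and 0.412 over all genes. By the mean of both Pol II libraries, 36 of the 94 genes ranked in the top 10 percent of all genes and 88 in the upper 50 percent. A level here is an average over the cells of a culture, so fewer cells with Pol II on a gene and less Pol II per cell cannot be told apart.

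Of the 94 genes, 86 had more Pol II than input at the start and 0 had less (limma, adjusted p under 0.05 over all genes), with a median log2 ratio of 2.59. Over all genes, 46.1% were called higher and 0.116% lower, with a median of 1.46. Among genes with a mean of at least 10 reads in the window over the Pol II and input libraries together, 69 of 69 were higher, beside 86.6% of 4758 genes. The excess of the median over all genes then fell from 1.13 to 0.17 (0.56 with 2 reads added and no such filter). Genes pass this filter partly through the Pol II reads that are tested, so its counts are no check of the calls. Counts in single windows are small, and 0.5 reads added to each library lift ratios of the shallower one. In simulated unchanged genes the median log2 was 0.55 and 1366 of 22159 were called higher. With 0.1 RPM added instead, an offset that lowers such ratios, 66 of the 94 were higher and 1 was lower, beside 27.5% of all genes called higher and 4525 of 22359 called lower.

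**Figure D1:**
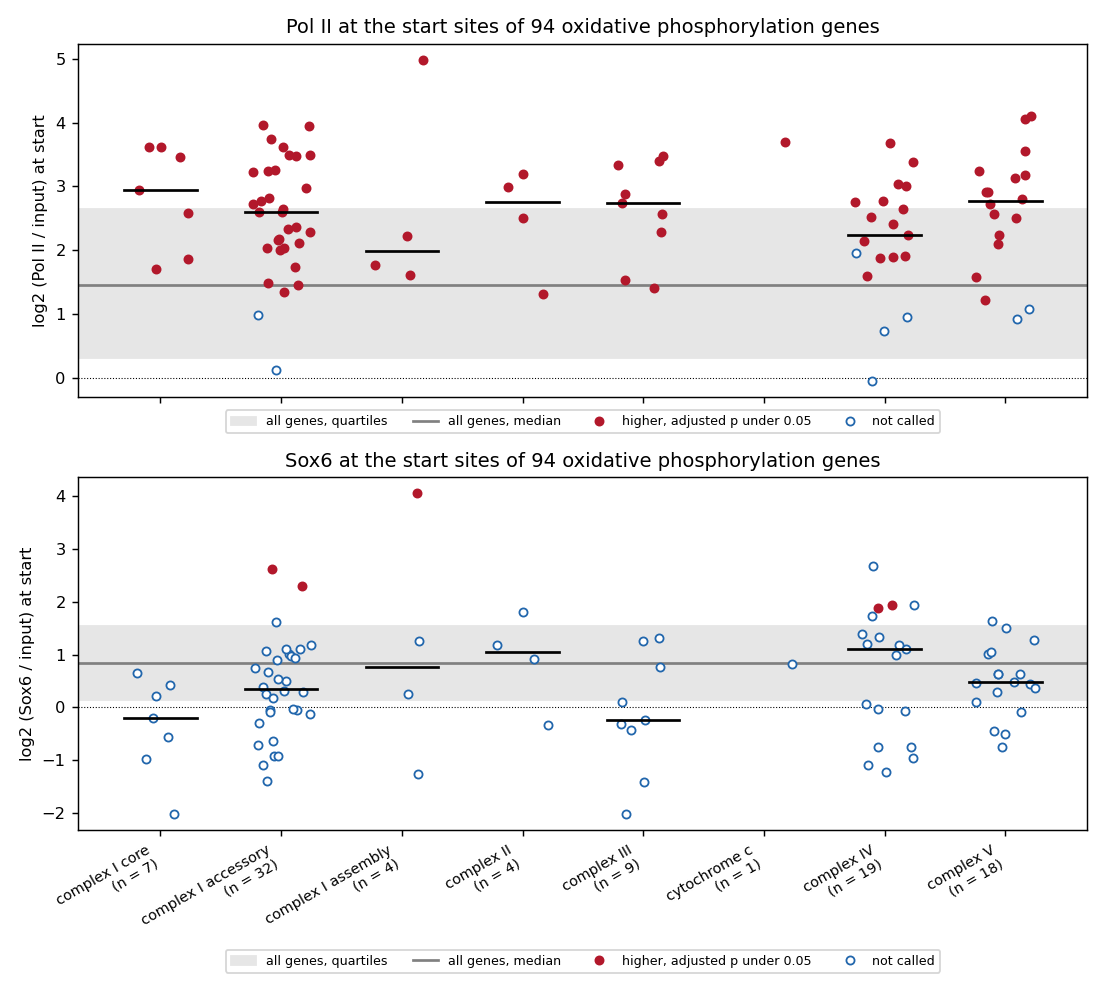
Each point is 1 of the 94 genes, placed by its complex, with the fitted log2 ratio of Pol II (top) or Sox6 (bottom) over input in the 1000 bp at the start. Filled points passed the threshold for being higher, black bars are group medians, and the grey line and band are the median and quartiles of all genes; 86 points are filled in the top panel and 5 in the bottom one.

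Around the start, the mean Pol II profile of the 94 genes was highest in the first 100 bp downstream, at 6.23 RPKM in replicate 1 and 5.95 in replicate 2. That was 4.78 and 5.33 times their mean between 2000 and 1500 bp upstream. The profile of all genes peaked in the same bin at 2.18 and 2.08 RPKM. Input dipped near the start, to 0.339 and 0.574 RPKM in its lowest bin for the 94 genes and to 0.275 and 0.366 for all genes. The dip covers a few bins of the 1000 bp window, whose input medians of 0.546 and 0.722 RPKM compare with 0.639 and 0.614 over the bodies. Sox6 had no such summit. Its lowest bin within 500 bp of the start was the 100 bp just upstream, at 0.425 and 0.526 RPKM.

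**Figure D2:**
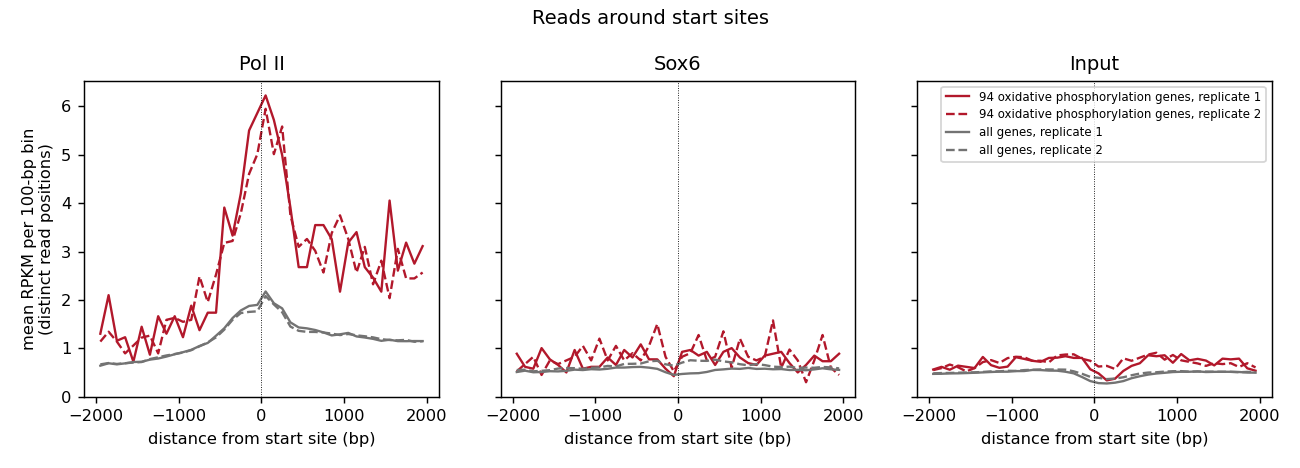
Mean RPKM in 100-bp bins from 2000 bp upstream to 2000 bp downstream of the start, for Pol II, Sox6 and input, with each position and strand counted once per library. Red lines are the 94 genes and grey lines all 22359 genes, solid for replicate 1 and dashed for replicate 2; the red Pol II lines reach 6.23 and 5.95 RPKM at the start and the Sox6 lines show no peak there.

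Over the gene body, 80 of the 92 genes with a body region had more Pol II than input and 2, Ndufaf2 and Cox7b2, had less. Cox6a2 and Atp5l-ps1 are too short to have such a region. The median log2 ratio was 1.82, against 0.27 over all genes, of which 38.4% were called higher and 23.4% lower. With libraries scaled to reads far from genes, 89 of 92 were higher and 1 lower, but 65.1% of all genes were then higher and 423 of 20453 lower, with medians of 3.13 and 1.58. Median body levels were 2.07 and 2.19 RPKM in the Pol II libraries and 0.639 and 0.614 in input. Among genes called higher in the body, the median ratio of start to body RPKM was 1.48 and 1.60 for 80 oxidative phosphorylation genes, against 1.53 and 1.49 over 7411 and 7434 genes with body reads in that library, so it was below all genes in one replicate and above them in the other.

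**Figure D3:**
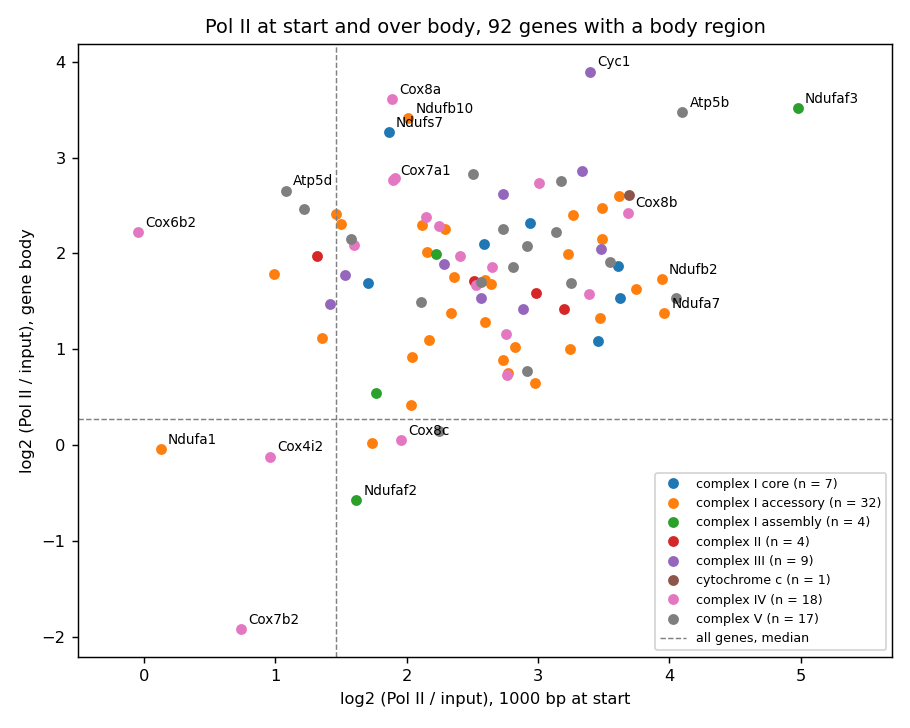
Fitted log2 ratio of Pol II over input at the start (x) and over the body (y) for the 92 genes with a body region, coloured by complex, with dashed lines at the medians of all genes (1.46 and 0.27). Most points lie above and to the right of both lines; Cox7b2 lies lowest, at -1.92 over the body.

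The 7 core genes of complex I all had more Pol II than input at the start and over the body. Ndufs1, the largest of the core subunits with iron-sulfur clusters, had 7.80 and 3.98 RPKM at the start in Pol II and 0.410 and 0.495 in input, with a log2 ratio of 3.62 ± 0.49 (SE, n = 2 against 2, limma adjusted p = 2.00e-12). Ndufs8, which also carries iron-sulfur clusters, had 11.7 and 8.33 RPKM against 0.683 and 0.949, a ratio of 3.61 ± 0.40. Pol II was above input in every library of both genes. The models of Ndufs1 and Eef1b2, a translation factor gene on the other strand, lie 3 bp apart, and reads in that window cannot be assigned to one of them.

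Of the others, Ndufv2, a flavoprotein subunit, had a log2 ratio of 3.46 at the start, followed by Ndufs3 with 2.94, Ndufs7 with 1.86 and Ndufv1, which binds NADH, with 1.70. The order changed over the body. Ndufs7 led there with 10.1 and 9.13 RPKM of Pol II against 0.964 and 1.03 of input, a log2 ratio of 3.27 ± 0.14 (limma adjusted p = 1.90e-08), and Ndufv2 was last with 1.08 ± 0.16.

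Among the 32 accessory genes of complex I, 30 were called higher at the start and 28 over the body. Ndufa7, Ndufb2 and Ndufa2 had the highest start ratios. Ndufb2 had 9.75 and 15.6 RPKM of Pol II and 0.592 and 1.07 of input, a log2 ratio of 3.94 ± 0.38. Ndufa7 reached 3.96 ± 0.42 with a start that lies within 1 kb of that of the ribosomal protein gene Rps28, and Ndufa2 reached 3.75 ± 0.44 with one within 1 kb of that of Ik. The other accessory genes called at the start had ratios from 1.35 (Ndufa10) to 3.62 (Ndufa13). Ndufb10 led over the body, with 10.2 and 7.92 RPKM against 0.949 and 0.752, a log2 ratio of 3.41 ± 0.31, and lies 340 bp from the ribosomal protein gene Rps2. Ndufb9 and Ndufa6 had start ratios of 3.48 and 3.26 and body ratios of 2.48 and 2.40, so both places were high in these genes. Ndufs4, in a model of 100300 bp, had 2.98 ± 0.50 at the start and 0.65 ± 0.10 over the body.

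Ndufa1, an accessory subunit on the X chromosome, was the exception in this group. It had 0 Pol II reads at the start in both libraries, which allows up to 1.95 and 1.09 RPKM, and 7 and 3 input reads. Over its body, 1 and 3 reads came from Pol II and 32 and 21 from input, with a log2 ratio of -0.04 ± 0.60. The other start not called, at 0.99 ± 0.60, belongs to one of the Ndufb8 identifiers, while the other identifier was called at 2.60 ± 0.55. Ndufb3 was called at the start, with 1.73 ± 0.51, though not without Pol II replicate 1 (1.05) or input replicate 1 (1.26), and its ratio was -0.32 within 250 bp. It had 0.573 and 0.518 RPKM over the body against 0.541 and 0.581 in input.

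The assembly factor Ndufaf3 had the highest start ratio of all 94 genes. In its start window 25 and 26 reads came from Pol II and 5 and 15 from input. That is 16.2 and 9.41 RPKM of Pol II and a log2 ratio of 4.98 ± 0.43 (limma adjusted p = 3.77e-28). Over the body the ratio was 3.52 ± 0.53, in a gene of 1477 bp whose annotated end lies 302 bp from that of Impdh2 on the other strand. Ndufaf2, another assembly factor, went the other way over its 106036 bp: 0.333 and 0.271 RPKM of Pol II lay below 0.465 and 0.436 of input, with a log2 ratio of -0.57 ± 0.13, although its start, within 1 kb of that of Ercc8, was called higher at 1.61 ± 0.55. Both body libraries of Pol II were below both inputs, and the direction turns when libraries are scaled to reads far from genes (0.73).

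The 4 genes of succinate dehydrogenase, complex II, were all called higher at both places. Sdhd, a membrane anchor, had the highest start ratio, 3.20 ± 0.49, with 5.85 and 3.62 RPKM of Pol II against 0.364 and 0.701 of input, in a window shared with the start of Timm8b. Sdha, the flavoprotein, had 2.99 ± 0.51, Sdhc, the other anchor, 2.51 ± 0.54, and Sdhb, the iron-sulfur subunit, 1.32 ± 0.53. Over the body Sdhb was the highest, with 2.45 and 1.78 RPKM and a log2 ratio of 1.98 ± 0.18. The body ratios of the 4 genes lay between 1.42 and 1.98.

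All 9 genes of complex III were called higher at the start and over the body. Cyc1, which encodes cytochrome c1, had the highest body ratio of the 92 genes: 22 and 27 reads from Pol II against 11 and 30 from input, or 7.48 and 5.11 RPKM against 0.262 and 0.647, gave a log2 of 3.89 ± 0.50 (limma adjusted p = 5.68e-05). Uqcrq followed with 5.40 and 4.67 RPKM and 2.86 ± 0.36. Uqcr11 had the largest start level in the complex, 16.2 and 9.78 RPKM, and a log2 ratio of 3.48 ± 0.36. The core subunits Uqcrc1, Uqcrc2 and Uqcrfs1, the Rieske iron-sulfur protein, had start ratios of 2.28, 2.89 and 2.57 and body ratios of 1.89, 1.42 and 1.53. The lowest start ratios of the complex were 1.42 in Uqcrb and 1.53 in Uqcrh. Cycs, the soluble cytochrome c that carries electrons to complex IV, had 9.10 and 4.71 RPKM of Pol II at the start against 0.410 and 0.619 of input, a log2 ratio of 3.69 ± 0.46, and 2.61 ± 0.29 over the body.

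Complex V had 16 of 18 genes called at the start and 15 of 17 over the body. Atp5b, the catalytic beta subunit of ATP synthase, had the most Pol II reads of the 94 start windows in replicate 2, 50, and shared the highest count of replicate 1, 25, with Uqcr11 and Ndufaf3, against 21 and 25 in the inputs. Its 16.2 and 18.1 RPKM put it at rank 82 of 22359 genes by the mean, with a log2 ratio of 4.10 ± 0.35, and its body had 9.92 and 11.2 RPKM with 3.47 ± 0.14 (limma adjusted p = 1.59e-08). Atp5c1, the gamma subunit that forms the rotating shaft, had 4.05 ± 0.45 at the start in a window shared with Kin, and Atp5a1, the alpha subunit, had 2.83 ± 0.18 over the body. Atp5d, the delta subunit, was not called at the start, with 4 and 5 reads from Pol II against 23 and 29 from input and 1.08 ± 0.49 (limma adjusted p = 0.0564). Its body was called, with 6.40 and 6.48 RPKM against 0.885 and 1.20. Atp5l-ps1, a name that marks a pseudogene, had 0 and 1 Pol II reads at its start.

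Atp5g1, Atp5g2 and Atp5g3 encode the same c subunit of the membrane ring. Pol II at their starts was 3.90 and 5.07, 8.45 and 5.07, and 7.80 and 3.26 RPKM, with log2 ratios of 2.81 ± 0.47, 2.92 ± 0.42 and 3.17 ± 0.48, which differ by less than their SE. Over the body Atp5g3 had 5.73 and 6.39 RPKM, above the 2.67 and 1.89 of Atp5g1 and the 3.64 and 2.88 of Atp5g2 in both libraries. Atp5o, part of the stalk, is represented by a model of 242585 bp that spans Cryzl1, Donson and Itsn1, so its body ratio of 0.78 ± 0.08 is not that of the gene alone. Atp5j, a stalk subunit with 3.55 ± 0.56, shares its start window with Gabpa, which encodes an ETS transcription factor.

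Of the 19 genes of complex IV, 15 were called at the start, and the 4 that were not are Cox4i2, Cox6b2, Cox7b2 and Cox8c, the isoforms of other tissues. The muscle isoforms Cox6a2, Cox7a1 and Cox8b were all called. Their start windows held 11 and 10, 4 and 8, and 16 and 20 Pol II reads, with log2 ratios of 3.04 ± 0.47, 1.90 ± 0.50 and 3.69 ± 0.42. A Pol II peak lay at the start of Cox8b in both replicates and at those of Cox6a2 and Cox7a1 in replicate 1. Cox6a2 overlaps Itgad on the map.

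The widely expressed genes of the complex were called too. Cox4i1 had 3.01 ± 0.76 at the start, on 3 and 3 Pol II reads in a window shared with Cox4nb, and more than 3 RPKM in both libraries with 2.73 ± 0.26 over the body. Cox5a and Cox5b, a pair of nuclear subunits, had 2.53 ± 0.49 and 2.76 ± 0.47 at the start. Cox5b was not called over the body, with 1.86 and 2.33 RPKM against 0.813 and 1.24. Cox6c, Cox7b and Cox7c had lower start ratios, of 1.60, 2.15 and 2.25, and body ratios of 2.09, 2.38 and 2.28.

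Over the whole gene, where Cox6a2 can be measured, the muscle isoforms carried Pol II at levels near or above those of their widely expressed partners, and at the start the order differed between pairs. The whole gene includes the bases just after the start, which weigh more in a short gene, and each muscle isoform is shorter than its partner. Pol II reads over the gene were 12 and 10 against 17 and 19 for Cox6a2, 9 and 19 against 16 and 34 for Cox7a1, and 16 and 25 against 26 and 50 for Cox8b. Cox6a2 had 8.38 and 3.89 RPKM and Cox6a1 3.31 and 2.06, a ratio of 2.53 and 1.89. Cox7a1 had 3.15 and 3.70 RPKM and Cox7a2 2.25 and 2.67, a log2 ratio of 0.48 and 0.47, or 1.39 times in replicate 2. Cox8b had 6.91 and 6.02 RPKM and Cox8a 6.87 and 7.36, a ratio of 1.01 and 0.818. In input the same ratios were 1.04 and 0.563, 0.741 and 1.34, and 1.51 and 0.926, so both Pol II ratios of Cox6a2 lay above both of input, those of Cox7a1 were little above the higher one, and those of Cox8b were not above input.

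The start windows gave another order. Cox8b was 3.2 and 2.5 times Cox8a there, against 1.07 and 0.552 in input, and Cox7a1 was 0.667 and 0.533 times Cox7a2, against 1.08 and 1 in input. Cox6a2 was 1.57 times Cox6a1 in replicate 1 on 11 and 7 reads and 5 times in replicate 2 on 10 and 2 reads, against 3.25 and 0.889 in input. So Cox8b lay above its partner at the start and not over the whole gene, and Cox7a1 lay below its partner at the start and above it over the whole gene. Cox6a2 lay above its partner in both, but its start ratio of 1.57 in Pol II replicate 1 was below the 3.25 of input replicate 1. The difference within a pair was not tested. Cox8a was itself second over the body, with 8.29 and 8.13 RPKM and a log2 ratio of 3.61 ± 0.36.

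Cox4i2, Cox7b2 and Cox8c lay far below their partners over the whole gene, and Cox6b2 did so in replicate 1. Cox4i2 had 0.359 and 0.400 RPKM over the whole gene against 3.29 and 3.24 for Cox4i1, a ratio of 0.109 and 0.123. Cox7b2 had 0.0987 and 0.0584 against 2.12 and 2.31 for Cox7b, and its body was below input, with a log2 ratio of -1.92 ± 0.23 (limma adjusted p = 3.85e-05). Cox8c had 0 Pol II reads over the gene in both libraries, which allows up to 1.59 and 0.884 RPKM, against 26 and 50 reads on Cox8a. Cox6b2 was uneven, with 1 and 6 reads over the gene. Its RPKM was 0.141 and 0.613 times that of Cox6b1, against 0.958 and 0.538 in input, and its body was called at 2.22 ± 0.71 (limma adjusted p = 0.0191), while its start had 1 and 0 reads. In input the ratio to the partner lay between 0.227 and 0.958 for these 4 pairs.

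**Figure D4:**
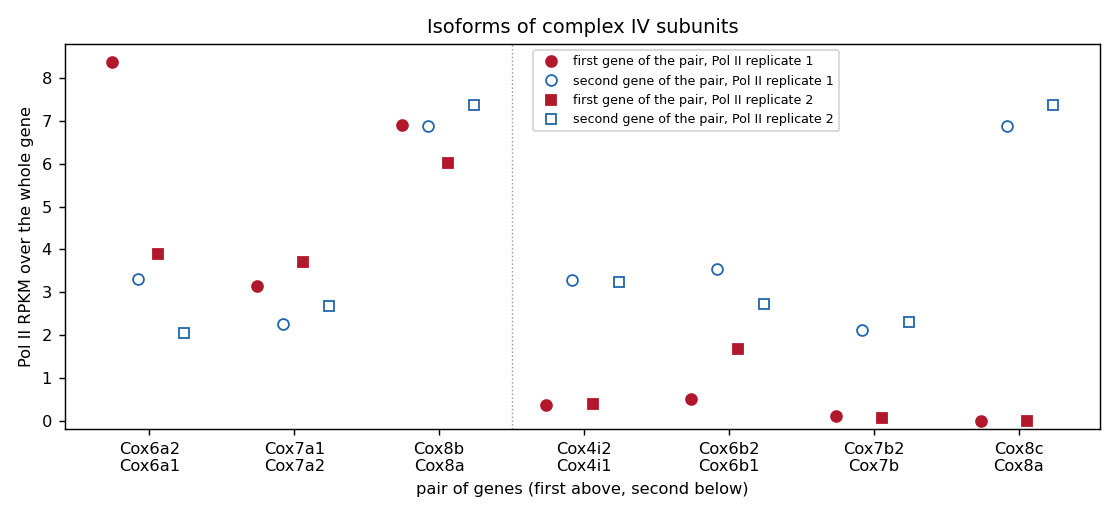
Pol II RPKM over the whole gene for 7 pairs of complex IV genes in both Pol II libraries, with muscle isoforms left of the dotted line and isoforms of other tissues right of it. The first gene of a pair is red and its partner open blue; Cox4i2, Cox7b2 and Cox8c lie near 0 while their partners lie between 2.12 and 7.36.

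The 250 bases before the starts of the muscle isoforms are shown because Pol II was called at all 3, together with those of Cycs and Atp5b, 2 genes with high start ratios. They were read from the NCBI Build 37 sequence, 5′ to 3′ on the strand of the gene, and capitals mark matches on either strand to any of the motifs searched. These are GCATGCGC for NRF1, AAGATGGCG for YY1, TCAAGGTCA for ERR, CCGGAAG for ETS, GGGCGG for Sp1, CAGCTG for an E-box, GGAATG for Tead, ACAAAG and ACAATG for Sox, TATAAA for TATA, and MEF2 by its name alone. No motif overlaps another in the stretches printed.
Cox6a2 (chr7:135349881-135350130, minus strand): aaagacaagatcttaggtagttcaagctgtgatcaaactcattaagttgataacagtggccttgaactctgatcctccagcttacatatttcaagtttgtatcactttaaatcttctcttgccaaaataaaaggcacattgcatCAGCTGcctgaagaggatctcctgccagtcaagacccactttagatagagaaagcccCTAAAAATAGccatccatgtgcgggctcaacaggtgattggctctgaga
Cox7a1 (chr7:30968940-30969189, plus strand): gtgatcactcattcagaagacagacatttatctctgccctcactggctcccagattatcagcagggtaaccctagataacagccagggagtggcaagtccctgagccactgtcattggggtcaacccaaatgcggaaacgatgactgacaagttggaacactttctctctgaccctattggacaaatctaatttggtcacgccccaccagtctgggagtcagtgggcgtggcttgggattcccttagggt
Cox8b (chr7:148086346-148086595, minus strand): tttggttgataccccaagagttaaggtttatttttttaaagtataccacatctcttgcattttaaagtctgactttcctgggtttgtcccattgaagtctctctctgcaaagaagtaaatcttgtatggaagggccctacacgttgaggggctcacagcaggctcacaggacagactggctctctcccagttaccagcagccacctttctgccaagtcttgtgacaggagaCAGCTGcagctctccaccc
Cycs (chr6:50516538-50516787, minus strand): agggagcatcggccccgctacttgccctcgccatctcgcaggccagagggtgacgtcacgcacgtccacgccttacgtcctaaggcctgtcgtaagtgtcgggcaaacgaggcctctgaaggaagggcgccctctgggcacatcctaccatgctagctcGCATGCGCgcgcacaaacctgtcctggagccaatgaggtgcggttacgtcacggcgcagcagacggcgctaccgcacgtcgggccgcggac
Atp5b (chr10:127520079-127520328, plus strand): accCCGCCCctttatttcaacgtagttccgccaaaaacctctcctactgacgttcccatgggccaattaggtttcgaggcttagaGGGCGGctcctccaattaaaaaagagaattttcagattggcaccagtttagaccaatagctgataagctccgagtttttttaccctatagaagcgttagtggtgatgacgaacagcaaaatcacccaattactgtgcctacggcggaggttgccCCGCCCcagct
The capitals in Cox6a2 are an E-box and a MEF2 match, in Cox8b an E-box, in Cycs the NRF1 letters and in Atp5b 3 Sp1 matches. The Cox7a1 stretch holds none of them. The 250 bases before Ndufaf3, the gene with the highest start ratio, also held no match and are not printed.

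In the 300 bases from 250 before to 50 after the start, the NRF1 letters were present in 12 of 94 genes, or 12.8%, against 3.34% of all genes. YY1 was present in 6.38% against 1.91%, ERR in 2.13% against 0.331%, and ETS in 19.1% against 11.0%. For the other motifs the shares were Sp1 in 47.9% against 44.7%, the E-box in 17.0% against 15.2%, Sox in 31.9% against 25.6%, TATA in 10.6% against 13.3%, Tead in 8.51% against 13.2% and MEF2 in 1.06% against 3.01%. The median GC content of these windows was 56.2% in the 94 genes and 55.7% in all. The GC content varied less among the 94 genes, with quartiles of 52.3% and 61.3% against 47.3% and 64.0% in all. Among windows with a GC content of at least 52.3%, which held 71 of the 94 genes and 13627 of all, the order turned for Sp1, at 56.3% against 67.4%, and for the E-box, at 15.5% against 16.5%. In those windows the NRF1 letters were in 15.5% against 4.69%, YY1 in 7.04% against 2.58%, ERR in 2.82% against 0.257% and ETS in 21.1% against 15.4%. This restriction was chosen after the data were seen. Genes with the NRF1 letters included Cycs, Sdhb, Uqcrc1, Uqcr11, Cox6a1 and Atp5g2. A match is a description of the letters and no evidence of binding.

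Peaks called by the authors gave a stricter view of Pol II. A peak in both replicates lay within 500 bp of the start in 15 of the 94 genes, or 16.0%, against 5.37% of all genes. A peak in at least 1 replicate was present in 47, against 13.1% of all genes. Genes with a peak in both included Ndufa2, Ndufa6, Ndufa7, Ndufa9, Ndufa11, Ndufa12, Ndufb2, Ndufs7, Ndufs8, Ndufaf3, Uqcr11, Cox8b, Atp5b and Atp5c1. No gene of complex II was among them.

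Sox6 was not raised at these starts as a group. The median start window contained 2 and 1 Sox6 reads, or 0.670 and 0.681 RPKM, against 0.335 and 0.681 over all genes. Of the 94 genes, 5 had more Sox6 than input and 0 had less, where 8.5% and 0.0134% of all genes were called. The median log2 ratio was 0.43, beside 0.83 over all genes. The 0.5 reads added lift windows with few reads most. These windows held a median of 12 and 17.5 input reads, against 7 and 10 over all genes. With 0.1 RPM added the order turned, with medians of -0.057 and -0.109. In the simulation of this comparison, run over all windows, unchanged genes had a median of 0.57 and 834 of 22159 were called higher. That median is thus no reference for these deeper windows alone. The 5 called higher were Ndufaf3, Ndufa13, Ndufb5, Cox7a2 and Cox6a2. Over the body 2 of 92, Ndufs7 and Ndufa9, were higher and 0 were lower, where 5.73% and 1.86% of all genes were called, and the medians were 0.22 and 0.21. These counts moved with every library left out. Without Sox6 replicate 1 or 2 they were 36 and 19 at the start, with 7 and 8 lower, where 41.3% and 19.4% of all genes were called higher. Over the body they were then 21 and 10, with 16 and 7 lower, against 35.6% and 20.7%. Without input replicate 1 or 2 they were 1 and 1 at the start and 0 and 1 over the body, against at most 0.0805% and 2.80% of all genes. Both were 0 with 0.1 RPM added, a setting under which 10 genes of all were called at the start and 0 over the body. By complex, the median Sox6 ratio at the start ran from -0.24 in complex III to 1.10 in complex IV. Sox6 levels did not follow that order, with medians of 0.670 and 0.681 RPKM in complex III and 0.335 and 0.681 in complex IV. Input had 0.774 and 0.825 RPKM in complex III and 0.546 and 0.619 in complex IV. These ratios are thus no measure of a Sox6 difference between complexes.

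Ndufaf3 stood apart from the others in Sox6. Its 15 and 12 reads, or 5.02 and 8.17 RPKM against 0.228 and 0.619 in input, gave a log2 ratio of 4.05 ± 0.56 (limma adjusted p = 2.50e-09), and both Sox6 libraries lay above both inputs. It was still called without any 1 of the 4 libraries, with log2 ratios from 3.38 to 4.73, but not with 0.1 RPM added (3.75). The other 4 rest on fewer reads: Cox7a2 had 8 and 4 Sox6 reads against 12 and 25 of input, Cox6a2 4 and 5 against 13 and 16, Ndufb5 4 and 3 against 3 and 22, and Ndufa13, an accessory subunit needed to assemble complex I, 4 and 1 against 1 and 14. Their log2 ratios were 1.93, 1.88, 2.30 and 2.62. None of these 4 was called with either input left out.

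A common Sox6 peak, one found in both replicates, lay in or within 20 kb of 2 of the 94 genes, Ndufa9 and Ndufaf3, which is 2.13% against 4.31% of all genes. Within 5000 bp it was the same 2 genes, or 2.13% against 2.70%, so the gap depends on the distance. The lists of single replicates gave 4 genes for replicate 1 (Ndufs7, Ndufs8, Ndufa9 and Ndufaf3) and 5 for replicate 2 (Atp5d, Uqcr11, Atp5f1, Ndufa9 and Ndufaf3), where 9.62% and 6.63% of all genes had one. Another gene holds or is nearest to some of these peaks. It is Aldh3b1 for that of Ndufs8, Midn for those of Atp5d, Mex3d for that of Uqcr11 and Wdr77 for that of Atp5f1, whose nearest start is still Atp5f1. The lists share the reads of this comparison, so the values at the peaks are a description.

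The Ndufaf3 peak is at chr9:108469482-108469581, inside the gene, with its centre 142 bp after the start. In the 450 bp around it were 13 and 10 reads from Sox6, 7 and 6 from Pol II and 1 and 2 from input. Its log2 ratio of Sox6 over input, 6.08 ± 1.45, ranked 6th of 1066 common peaks, whose median was 3.52. The rank is imprecise, as it rests on those few input reads. The 100 bases of the peak hold CAGCTG and GGGCGG but neither ACAAAG nor ACAATG. This gene thus had the most Pol II and the most Sox6 over input at the start among the 94. Both ratios share the 5 and 15 input reads of its start window. The Ndufa9 peak lies inside the gene, 10741 bp after the start. Its 450 bp had 7 and 10 reads from Sox6, 1 and 4 from Pol II and 10 and 6 from input, a log2 ratio of 3.57 ± 0.59 that ranked 508th. Its 200 bases are printed in full, on the strand of the gene, because it is the common peak that lies far from the start of its gene. The capitals mark an E-box at 2 places and a Sox match on the other strand.
Ndufa9 peak (chr6:126788322-126788521, minus strand): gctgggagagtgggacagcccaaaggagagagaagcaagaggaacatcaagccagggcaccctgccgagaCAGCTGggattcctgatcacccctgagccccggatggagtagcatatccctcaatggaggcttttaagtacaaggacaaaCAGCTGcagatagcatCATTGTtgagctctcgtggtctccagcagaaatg

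Ndufs7, called for Sox6 over the body, had 46 and 30 Sox6 reads there, or 2.15 and 2.85 RPKM, against 0.964 and 1.03 in input, a log2 ratio of 1.33 ± 0.22 (limma adjusted p = 0.0131). Its Pol II level over the same stretch was among the highest of the 94 genes. Ndufa9 had 77 and 41 Sox6 reads, or 0.963 and 1.04 RPKM against 0.615 and 0.605, a log2 ratio of 0.73 ± 0.15 (limma adjusted p = 0.0226). In both genes the Sox6 libraries lay above both inputs, but without input replicate 1 neither was called. A Sox6 peak of replicate 1 lies inside Ndufs7 (chr10:79718512-79718851), where Pol II had 19 and 27 reads, Sox6 9 and 6 and input 7 and 8.

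Neighbouring mitochondrial genes, taken from lists chosen by function, are given for comparison. Of 13 TCA cycle genes, 10 were called higher at the start and 12 over the body, with 1 lower. Of 16 genes for the assembly of complexes II to V, 16 were called at the start and 12 of 14 over the body. Their median start ratios were 2.40 and 2.77, beside 2.59 for the oxidative phosphorylation genes and 5.28 for the 8 myotube markers. For Sox6 at the start, 1 gene of each list was called.

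Many of the 94 genes lie close to others. Another coding start lay within 1 kb of 29 of them, and 17 overlap another coding gene. Among the 65 with no other start within 1 kb, 59 were called higher for Pol II at the start, with a median log2 ratio of 2.51. Among the 84 that remain without assembly factors and look-alike names, 77 were called at the start and 74 of 83 over the body.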

How the data were processed

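The authors aligned the reads of 6 ChIP-seq libraries with Bowtie 0.12.5 to NCBI Build 37 (mm9, the build in the submitters' processing notes) and kept uniquely mapped reads, and ran SISSRs on each library, with the experiment's own input as background, to call peaks. The deposited read files give 1 position per read, with a score column that was not used. The deposited peak lists likewise carry a score column that was not used here. Reads were therefore counted here from these positions in windows of GENCODE vM1 gene models on the same build, using the longest protein-coding model of each gene. Repeated positions, 2.96% to 7.88% of reads, were kept.

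limma 3.58.1 in R 4.3.3, with a trend, was fitted to log2 of reads plus 0.5 scaled to all mapped reads, for each antibody against input over all genes, with Benjamini-Hochberg adjustment at 0.05 and no low-count filter. On simulated data with 4-fold changes it found 76 of 100 genes for Pol II at starts, 66 of 100 for Sox6 at starts, 82 of 100 for Pol II over bodies and 94 of 100 for Sox6 over bodies. The changed genes were drawn only from windows where input predicted a read or more in a ChIP library. The spread between simulated libraries was fixed in advance and not estimated from these data. These rates therefore do not hold for emptier windows or for the real spread between libraries. The limits given for 0 reads cover counting error only. Python 3.11.15 was used for counting.

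Genes to name were set by a rule: complex IV isoforms, the 8 highest and 6 lowest Pol II ratios at the start and over the body, starts not called for Pol II, genes with Sox6 peaks or Sox6 calls, Sdha to Sdhd, Cyc1, Cycs and the complex I core. One item that the rule covers is not reported here. Values of other genes are given for counts of few genes or chosen after they were seen. The genes and lists were chosen with earlier results of these data known. Alternatives were other offsets, filters, scalings, windows, starts and distances, distinct positions, a replicate block and each library left out.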

Additional observations from a re-analysis of the deposited data

How the results depend on the processing

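Pol II counts stayed within 1.5 times of 86 at the start and 80 over the body under every alternative, from 66 with 0.1 RPM added to 94 with 2 reads added at the start and from 75 without either input to 89 with scaling to far reads over the body, beside 30.6% and 31.2% of all genes for the former and 65.1% for the latter. At the start the share of all genes moved to 87.0% with 2 reads added and to 86.6% with a mean of at least 10 reads. Under that filter 69 of 69 members were called, but genes pass it partly through their Pol II reads. The excess of the members' median log2 over all genes at the start, 1.13, fell to 0.56 with 2 reads added and to 0.17 with that filter. It was 2.17 with 0.1 RPM added. Scaling to reads far from genes raised the median log2 of all genes from 1.46 to 2.77 at the start and from 0.27 to 1.58 over the body. It shifts every gene by the same amount, so the members stayed 1.13 and 1.55 above that median by construction, which is no check of the excess. The Sox6 count at the start was 47 with 2 reads added, 0 with 0.1 RPM added, 1 with a mean of at least 10 reads, 8 within 250 bp and 1 within 1000 bp, where 72.1%, 0.0447%, 2.82%, 19.2% and 4.24% of all genes were called higher. Over the body it was 5 with 2 reads added, 0 with 0.1 RPM added and 4 over the whole gene, where 20.6%, 0% and 10.4% of all genes were called higher. The cause was not tested. Leaving out 1 library gave 1 to 36 members at the start (36 without Sox6 replicate 1 and 19 without replicate 2, beside 41.3% and 19.4% of all genes and with 7 and 8 members lower, and 1 without either input, beside 0.0313% and 0.0805%) and 0 to 21 over the body (21 and 10 without Sox6 replicates 1 and 2, beside 35.6% and 20.7% and with 16 and 7 lower, and 0 and 1 without inputs 1 and 2, beside 0.797% and 2.80%). Without a Sox6 library the spread comes from the deeper inputs alone and the lone sample is assumed to vary like them. Members with a Sox6 peak were 2 within 5000 bp, 5 within 50000 bp, 4 in the list of replicate 1 and 5 in that of replicate 2, where 2.70%, 6.97%, 9.62% and 6.63% of all genes had one.

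With the replicate block, 84 and 80 members were called for Pol II and 5 and 3 for Sox6, with 1 lower, beside 44.6% and 38.5% of all genes for Pol II and 7.47% for Sox6 at the start. The methods name the input of each experiment as background, but no label says that a number marks a shared experiment, and deviations of same-numbered libraries had correlations between -0.017 and 0.043 across genes. Over all genes the block moved the Sox6 body calls from 5.73% to 15.7%.

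Single genes were followed across the settings only for a list of named genes, not for all members. Among their values called in at least 1 of the settings compared, directions turned for Pol II at the start in Ndufa1 with 0.1 RPM added (-1.61), Ndufb3 within 250 bp (-0.32) and Cox6b2 with 2 reads added (1.25) and within 1000 bp (1.34). Over the body they turned in Ndufaf2 (0.73) and Cox4i2 (1.18) with scaling to far reads and in Cox8c with 0.1 RPM added (-1.65). Values near 0 that were not called changed sign more often, such as Ndufa1 at the start without Pol II replicate 1 (-0.29) or input replicate 2 (-0.49), Cox6b2 without Pol II replicate 2 (1.17) and the Cox8c body without Pol II replicate 1 (-0.37). For Sox6 the body value of Ndufaf3 was 2.96 over the whole gene and that of Ndufs1 ran from -0.453 without Sox6 replicate 2 to 0.30 without replicate 1, and the median at the start was -0.057 with 0.1 RPM added and -0.22 with at least 10 reads. A start window held a median of 6 and 10 Pol II reads and 2 and 1 Sox6 reads, so single starts are imprecise, those of Sox6 most of all.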
